A study of Mus musculus with 2 samples.

Results

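Klf4 peaks were almost missing from 5 windows of the mouse genome chosen to cover arrays of olfactory receptor genes. The windows were set by mm9 coordinates, with no peak value in the rule, but they were proposed with earlier results of these data known. They lie at 85.2 to 90.0 Mb and 110.95 to 111.8 Mb on chromosome 2, then 109.6 to 110.4 Mb and 113.7 to 115.9 Mb on chromosome 7. The last covers 37.6 to 40.0 Mb of chromosome 9. A peak was counted in a window when its midpoint fell inside. Of 7313 peaks in the list, 3 met that rule: 2 in the first chromosome 7 window, 1 in the second, and 0 in the other windows. The windows together would hold 44.9 peaks at the rate of their flanks of 3 Mb. At the rate of the rest of the 3 chromosomes they would hold 38.4. Taken singly, the short chromosome 2 window and both chromosome 7 windows had common counts. Same-length windows placed 1000 times on the same chromosome held as few peaks in 310, 584 and 254 placements, in that order.

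The peaks came from chromatin immunoprecipitation and sequencing with an anti-Klf4 antibody in mesenteric arcades of C57BL/6 mice fed chow. The labels list 1 library with genotype eYFP+/+ Klf4WT/WT and 1 with genotype eYFP+/+ Klf4delta/delta, whose smooth muscle cells (SMC) lacked Klf4. The sources used here do not give the driver of the deletion, the number of animals behind a library or the read depth. The labels place the deletion in SMC, and Klf4 in the other cells of that tissue was not measured here. A single peak list without genotype was analysed, so no genotypes were compared, there is no replicate error, and intervals below cover counting error only. The chromatin came from stromal vascular cells of several types, among which the labels name smooth muscle cells, epithelial cells and macrophages but no olfactory neurons.

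Olfactory receptors are odorant-binding proteins with membrane-spanning helices that signal through G proteins in sensory neurons of the nose. Their genes are small, form one of the largest mammalian gene families and stand in tandem arrays that grew by duplication. Most of them are silent in other tissues. Klf4 is a zinc-finger transcription factor that binds CACCC and related GC-rich elements. Windows over receptor arrays therefore show how many peaks the list holds in sequence rich in genes that are mostly silent outside the nose.

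The sequence in front of receptor genes was poor in G and C. Since the windows are in mm9 and the RefSeq gene and promoter tables are in GRCm38.p6, receptor genes of chromosomes 2, 7 and 9 were taken by symbol, and which of them fall in the windows was not determined. These chromosomes carry 656 protein-coding receptor genes among 5013 (13.1%), of which 561 had a promoter entry, the 250 bases before and 50 after the annotated start. Below are the 250 bases before the start for the receptor gene of median GC content on each of the 3 chromosomes, and for Acp2, which encodes a lysosomal acid phosphatase and has the median GC content of the other genes there. They are shown to let the base composition of an array promoter be read beside that of an ordinary one. Sequences are from RefSeq, run 5′ to 3′ on the strand given, and have matches to the motifs named below in capitals. Their positions are in GRCm38.p6 and cannot be compared with the mm9 windows.
Olfr1057, chr2:86375411-86375660 (-): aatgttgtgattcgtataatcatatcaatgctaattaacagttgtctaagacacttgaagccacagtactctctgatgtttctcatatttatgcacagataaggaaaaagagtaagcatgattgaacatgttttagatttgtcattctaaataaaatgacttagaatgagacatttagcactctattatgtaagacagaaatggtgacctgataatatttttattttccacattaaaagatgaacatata
Olfr292, chr7:86688091-86688340 (+): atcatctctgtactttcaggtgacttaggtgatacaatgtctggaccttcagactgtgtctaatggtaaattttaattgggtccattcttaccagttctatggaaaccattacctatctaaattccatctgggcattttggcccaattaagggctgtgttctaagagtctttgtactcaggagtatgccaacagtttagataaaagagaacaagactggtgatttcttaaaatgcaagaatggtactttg
Olfr147, chr9:38401461-38401710 (+): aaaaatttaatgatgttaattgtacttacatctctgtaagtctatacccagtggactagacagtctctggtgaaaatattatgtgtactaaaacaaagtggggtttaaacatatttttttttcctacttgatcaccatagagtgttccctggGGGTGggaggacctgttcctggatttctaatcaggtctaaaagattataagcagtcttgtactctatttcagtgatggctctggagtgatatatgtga
Acp2, chr2:91202662-91202911 (+): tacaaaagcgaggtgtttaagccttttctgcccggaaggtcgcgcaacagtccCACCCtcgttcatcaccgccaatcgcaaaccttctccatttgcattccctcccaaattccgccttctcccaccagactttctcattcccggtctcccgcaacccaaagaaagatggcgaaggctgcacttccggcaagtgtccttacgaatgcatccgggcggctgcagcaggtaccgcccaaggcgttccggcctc

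Receptor promoters were distinct in composition from those of other genes on the same chromosomes. Median GC content was 34.3% (quartiles 31.0% and 37.7%) over the 561 receptor promoters and 57.0% (quartiles 50.3% and 64.3%) over 3748 others. A GC content above 50% was found in 7 receptor promoters (1.25%) and in 2821 others (75.3%). No CpG dinucleotide was present in 197 receptor promoters (35.1%), against 129 others (3.44%). Olfr292 and Olfr147 are of that kind, while Olfr1057 had 2 CpGs and Acp2 had 19, counted like all values here over the full entry of 300 bases and not only the 250 printed.

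Motifs of the CACCC type and the longer motifs of Klf4 were also scarcer there. The counts were not adjusted for the low GC content of receptor promoters. Whether the motifs are scarcer than base composition alone would give was not tested. Searched on both strands, GGGTGTGG was in 0 of 561 receptor promoters and 159 of 3748 others (4.24%), and in 3.63% of all 17491 promoters of protein-coding genes. GGGCGTGG was in 1 receptor promoter (0.178%) and 272 others (7.26%), with 7.04% over all promoters. The shorter CACCC, whose reverse complement lies within GGGTGTGG, was in 120 receptor promoters (21.4%) and 2277 others (60.8%), with 58.4% over all. Olfr147 holds it once, on the opposite strand, and Olfr1057 and Olfr292 do not hold it. In 410 of the 561 receptor entries (73.1%) the annotated start was an ATG, against 6.54% of the others, so many receptor entries begin at the coding start and their true transcription start may lie elsewhere. Among the 151 receptor entries that did not begin with ATG, median GC content was 35.0% and CACCC was in 38 (25.2%). A match describes letters only, and motifs were not searched under the peaks.

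**Figure D1:**
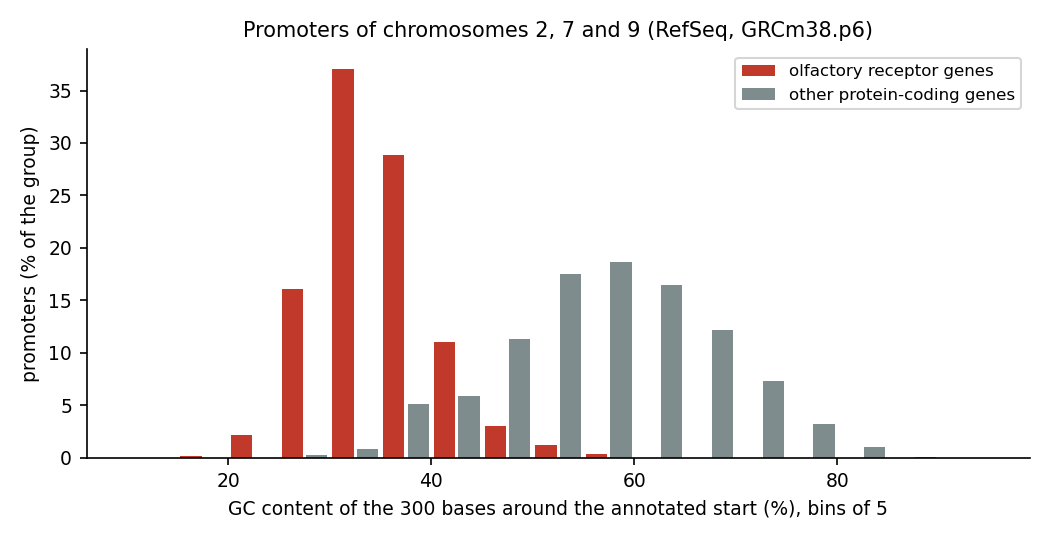
GC content of promoters on chromosomes 2, 7 and 9 (x axis, percent of 300 bases, in bins of 5) against the percent of each group's promoters (y axis), for 561 olfactory receptor genes (red) and 3748 other protein-coding genes (grey). The receptor promoters centre on a median of 34.3% and the others on 57.0%.

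The long chromosome 2 window held no Klf4 peak over 4.8 Mb. A count of 0 allows up to 0.625 peaks per Mb (3 counts over the window), and the exact Poisson 95% interval reached 0.769. Its flanks of 3 Mb held 13 peaks below and 20 above, or 5.50 per Mb, so that 26.4 peaks would have lain in the window at the flank rate. The ratio of window to flank rate was 0 (95% interval up to 0.148). It was also 0 against the rest of chromosome 2, which held 601 peaks at 3.48 per Mb (interval up to 0.222). The nearest peaks were at 84888006 to 84888536 (score 70.09), 311.5 kb before the window, and at 90419713 to 90420798 (score 233.85), 419.7 kb after it. The peak-free stretch between them measured 5.53 Mb and ranked 3 by length among 600 gaps on chromosome 2. Of the 7278 gaps between neighbouring peaks on the autosomes and chromosome X, 40 were at least as long, this one included. The highest flank scores were 288.9 at 84555599 to 84556513 and 313.66 at 91042284 to 91043791, so high-scoring peaks stood on both sides. Moved along chromosome 2 in steps of 10 kb, a window of this length held no peak at 2.35% of positions. Of 1000 seeded random placements 26 held none, with a median of 12 peaks. Both shares count positions over the window itself. With placements that touched none of the 5 windows, 2.1% held no peak.

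The chromosome 9 window also held no peak, over 2.4 Mb, which allows up to 1.25 per Mb by the limit of 3 counts. The exact Poisson 95% interval of its rate reached 1.54. Its flanks held 14 and 8 peaks, or 3.67 per Mb, and the ratio to them was 0 (95% interval up to 0.456). The nearest peaks stood 135.0 kb before the window, at 37463778 to 37464961 (score 82.94), and 131.0 kb after it, at 40131035 to 40131893 (score 79.98). The stretch between them, 2.67 Mb, ranked 7 among 387 gaps on chromosome 9, and 90.0% of it lay in the window. The highest flank scores were 464.95 (35018682 to 35019595) and 240.32 (40609327 to 40610457). No peak was held by 5.66% of same-length positions on chromosome 9 and by 68 of 1000 placements, whose median was 6.

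The short chromosome 2 window held no peak in 0.85 Mb, which its length makes uninformative. A count of 0 there allows up to 3.53 per Mb, above the 2.33 per Mb of its flanks (4 peaks below and 10 above), and the interval of the ratio reached 2.13. As many as 29.5% of same-length positions on chromosome 2 and 310 of 1000 placements also held none. The nearest peaks, at 109857842 to 109858594 (score 69.53) and 112079247 to 112080282 (score 138.2), bounded a gap of 2.22 Mb, of which the window took 38.3%. The highest flank scores were 125.18 below (109730560 to 109732143) and 255.73 above (112294629 to 112296078).

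On chromosome 7 the second window held 1 peak in 2.2 Mb, or 0.455 per Mb (95% interval 0.0115 to 2.53). Its flanks held 6 and 14 peaks, or 3.33 per Mb, and the ratio was 0.136 (0.00329 to 0.853). The peak at 114738109 to 114738748 stood near the middle of the window, 1038 kb from the nearer edge, with 1837 kb of peak-free sequence before it and 1339 kb after it. It was 640 bp wide and scored 87.51. Outside the window the nearest peaks were at 112900144 to 112900750 (score 77.48), 799.2 kb before, and at 116077840 to 116078548 (score 63.86), 177.8 kb after. The highest scores of the flanks were 218.93 (112885187 to 112886177) and 392.57 (118225061 to 118226557). With 1 peak or fewer in 26.6% of same-length positions on chromosome 7 and in 254 of 1000 placements, this count was common on its chromosome.

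The first chromosome 7 window was not measurably poorer in peaks than its surroundings. It held 2 peaks in 0.8 Mb, or 2.50 per Mb (95% interval 0.303 to 9.03), against 4.67 per Mb in its flanks (ratio 0.536, 0.0618 to 2.12). Same-length positions on chromosome 7 held 2 or fewer peaks in 61.9% of cases and placements in 584 of 1000, so the count lay in the usual range. Both peaks stood in the lower part of the window. The peak at 109713442 to 109713937 was 496 bp wide, scored 96.1 and lay 113.4 kb inside the edge. The peak at 109835397 to 109835857 was 461 bp wide, scored 68.15 and lay 235.4 kb inside. Another peak, at 109590002 to 109591203 (score 114.06), ended 8.80 kb outside the same edge, and the next after the window was at 111612912 to 111613592 (score 62.02). The flanks were uneven, with 22 peaks below, of which 107641817 to 107643297 scored highest (253.29), and 6 above. The second window has the same 6 peaks in its lower flank, including the one that scored 218.93. Whether these flanks hold further receptor genes was not tested, because gene positions in mm9 were not used here.

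**Figure D2:**
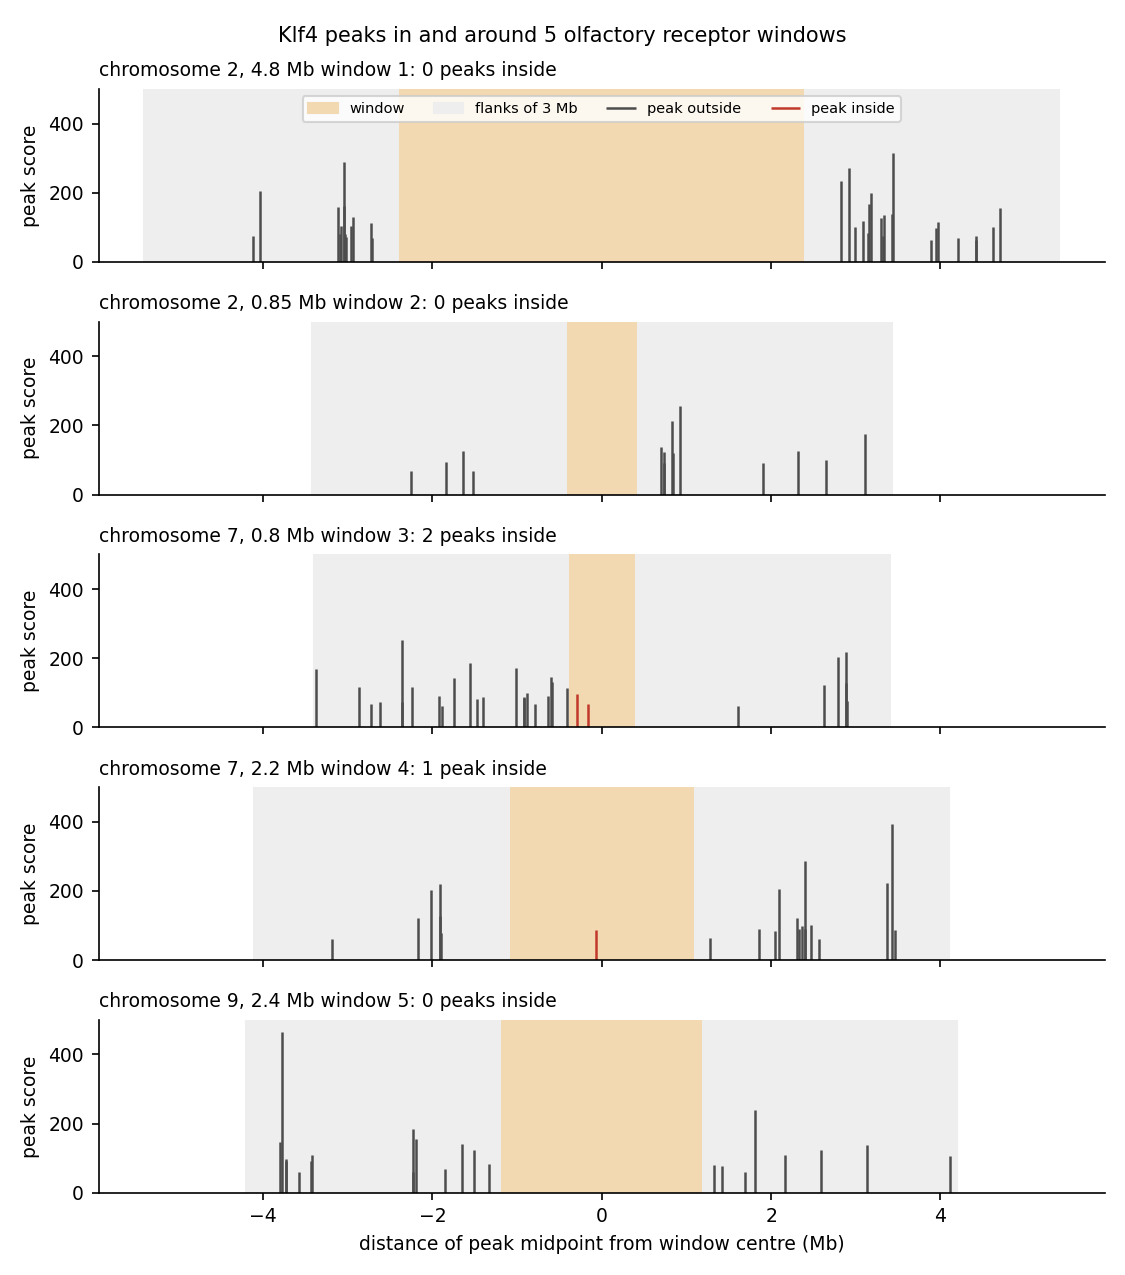
Score of each Klf4 peak (y axis, the authors' score) against the distance of its midpoint from the window centre (x axis, Mb) for the 5 windows (orange) and their flanks of 3 Mb (grey), in the order given in the opening. Red lines are the 3 peaks inside windows, 2 near the lower edge of the first chromosome 7 window and 1 in the middle of the second, and none reaches a score of 100.

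Taken over all 5 windows, 3 peaks in 11.05 Mb gave 0.271 per Mb (95% interval 0.0560 to 0.793). The joined flanks held 111 peaks in 27.3 Mb, or 4.07 per Mb, from which 44.9 peaks would be counted in the windows. The ratio to the flanks was 0.0668 (0.0136 to 0.200), and to the rest of chromosomes 2, 7 and 9 it was 0.0781 (0.0161 to 0.229). Both intervals lie below 1, but they treat peaks as independent counts. Peaks cluster, so these intervals understate the spread. The rest of the 3 chromosomes held 1516 peaks in 436.1 Mb, and at the rate of the windows it would have held 118.4, or 7.81% of that number. Whether the rest holds further receptor arrays was not determined, so it is not known to be free of them. The long chromosome 2 window carried much of the pooled value: without it the ratio was 0.131 (0.0265 to 0.397) to the flanks and 0.138 to the rest. Without the first chromosome 7 window the ratios were 0.0263 (0.000659 to 0.150) and 0.0281, from 1 peak in 10.25 Mb. None of 1000 joint placements of 5 windows held 3 peaks or fewer. Those placements held between 4 and 101 peaks with a median of 34. Starts were drawn between the outermost peaks of each chromosome, in place of its full mm9 length. They are given as a description, since peaks cluster and are not independent.

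**Figure D3:**
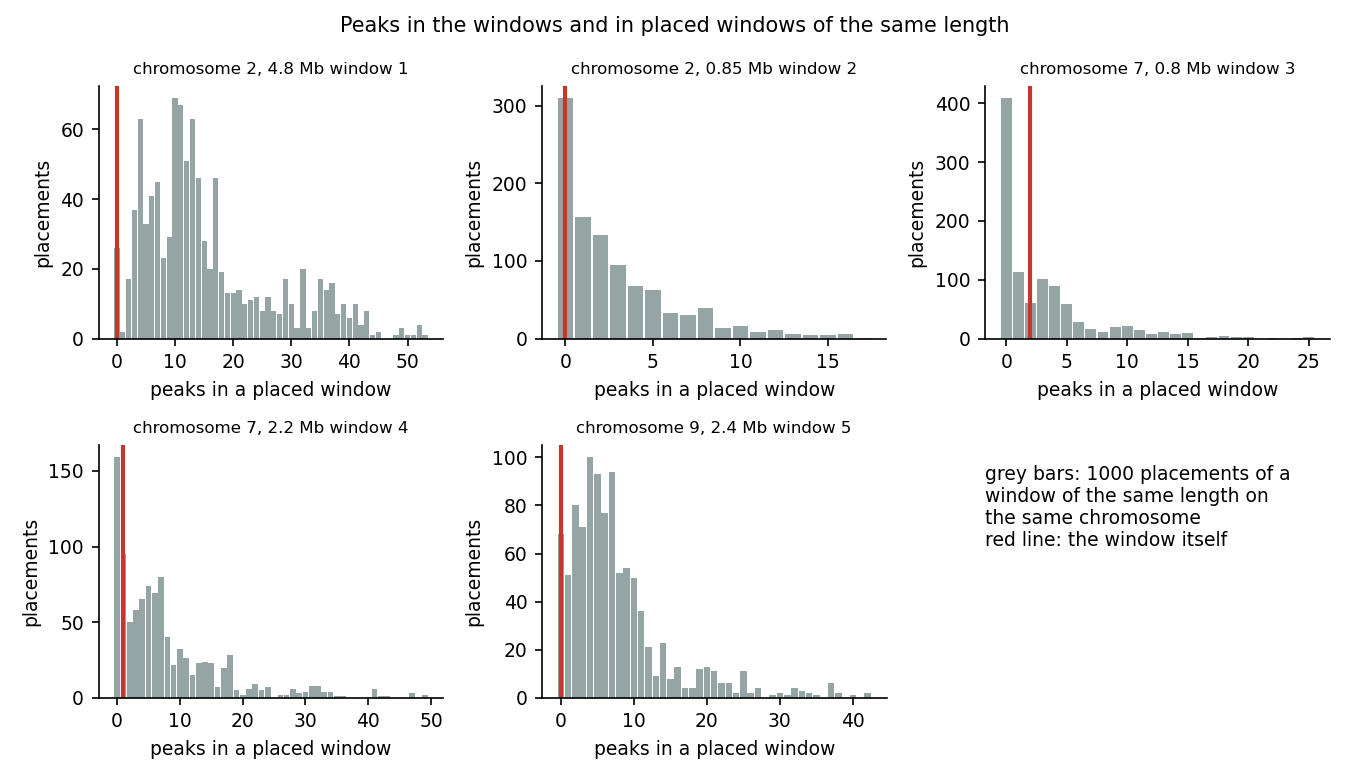
Number of peaks in a placed window (x axis) against the number of 1000 seeded placements on the same chromosome (y axis, grey bars), for each of the 5 window lengths, with the window itself as a red line. The red line stands at the low end for the long chromosome 2 window (26 placements with 0 peaks) and inside the usual range for the first chromosome 7 window (584 placements with 2 or fewer).

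With the flanks of all 5 windows pooled, peak density was higher outside the edges than in the windows, but single edges differed. The nearest outside peak was 1091 kb below the short chromosome 2 window. On chromosome 7 it was 1213 kb above the first window and 799 kb below the second, so peak-free sequence ran on past these edges. At the other edges it was between 8.80 and 420 kb away. The steps that follow join all edges and do not describe any single one. Peaks per Mb were 4.40 (95% interval 2.76 to 6.66) within 0.5 Mb of the nearest edge and 6.40 (4.38 to 9.03) between 0.5 and 1 Mb. They were 4.80 between 1 and 1.5 Mb, 2.79 between 1.5 and 2 Mb, 3.50 between 2 and 2.5 Mb and 1.75 (0.704 to 3.61) between 2.5 and 3 Mb. All 6 values exceeded the 0.271 of the windows, and the interval of the last, which begins at 0.704, overlapped that of the windows, which ends at 0.793. Out to 1.5 Mb the values were above the 3.48 per Mb of the rest of the 3 chromosomes, which includes the flanks. The 3.50 between 2 and 2.5 Mb was slightly above it too. The rate of 3.48 lay inside the intervals within 0.5 Mb, between 1 and 1.5 Mb (3.08 to 7.14) and between 2 and 2.5 Mb (1.91 to 5.87).

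**Figure D4:**
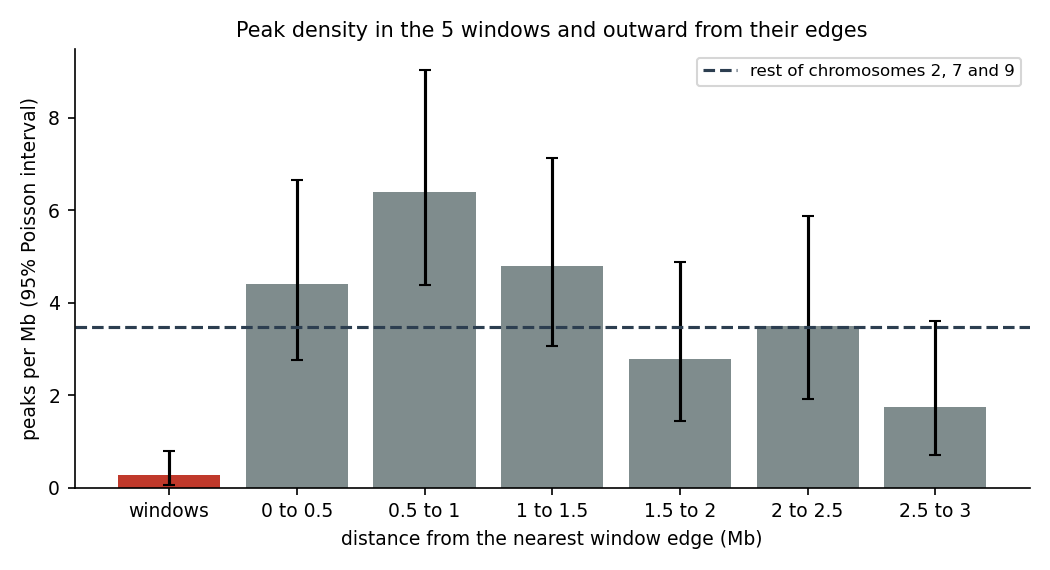
Peaks per Mb (y axis) in the 5 windows together (red) and in steps of 0.5 Mb outward from their edges (grey), with exact Poisson 95% intervals. The dashed line is the rest of chromosomes 2, 7 and 9, flanks included, at 3.48 per Mb. The windows are at 0.271 and the first step outside is at 4.40.

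The 3 peaks inside the windows scored below the median of the list and were narrower than most of its peaks. Their scores, 68.15, 87.51 and 96.1, exceeded those of 9.46%, 30.3% and 39.5% of all peaks, and their widths, 461, 640 and 496 bp in the same order, exceeded 3.51%, 18.7% and 5.50%. Flank peaks had a median score of 107.85 (60.76 to 464.95) and a median width of 991 bp (361 to 2293 bp), close to the 112.02 and 913 bp of the whole list. Of the 111 flank peaks, 45 scored no higher than 96.1, 16 were no wider than 640 bp, and 13 (11.7%) met both limits. Below the list's median score the windows held 3 peaks against 58 in the flanks (ratio 0.128, 95% interval 0.0256 to 0.392). At or above the median they held 0 against 53, where 21.5 would be counted at the flank rate (ratio up to 0.178). Peaks were thus fewer in both classes of score, and with 3 members no difference in score or width was tested.

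Receptor genes of these chromosomes stand in long unbroken runs. In the RefSeq gene order, counting protein-coding genes and runs of at least 10, chromosome 2 had 4 runs with 281 of its 287 receptor genes, chromosome 7 had 9 runs with 201 of 239, and chromosome 9 had 5 runs with 129 of 130. The largest run, 123 genes from Olfr153 to Olfr1274 on chromosome 2, ends beside Ptprj, a receptor tyrosine phosphatase gene. A run of 93 genes ends beside Pramel7 and the run of 123 begins beside Pramel6, both of the Prame-like family. Chromosome 7 runs were shorter, with 42 genes at most. Its run of 25 genes ends beside Hbb-bt and the next, of 16 genes, begins beside Hbb-y, both of which are beta-globin genes. On chromosome 9 the runs of 40 and 29 genes are parted by Vwa5a. Which of these runs the mm9 windows cover was not determined, so peaks per receptor gene were not computed.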

How the data were processed

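One peak list for the whole series was used. The authors called peaks with MACS, per the peak names in the file, and deposited 1 score per peak. The sources used here give no MACS version, threshold or control. The submitters' processing notes name Bowtie, SAMtools and the build mm9. Starts were moved by 1 base to be 1-based. Windows and gene lists were chosen with earlier results of these data known.

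Rates carry exact Poisson 95% intervals and ratios exact (Clopper-Pearson) 95% intervals. Both treat peaks as independent, although peaks cluster, and so understate the spread. A count of 0 is given with a limit of 3 counts, which lies below the upper end of its exact Poisson 95% interval. Flanks of 3 Mb exclude other windows. Windows of each length were placed 1000 times (seed 1) and at every 10 kb, over the span of the chromosome's peaks. Positions over the windows themselves were included. The code was tested on simulated peaks drawn uniformly. These do not cluster as the real peaks do, so that test does not bear on the effect of clustering. No p-value was computed. Peaks named were all those in windows, the nearest outside each edge and the highest of each flank. Promoters, 1 per protein-coding gene (the first entry), were from RefSeq (GRCm38.p6). Alternatives covered the edges, flanks, overlap, score, merging and placement. Computations used numpy 2.4.6 and scipy 1.17.1 with pandas 2.3.3 in Python 3.11.15, and plots matplotlib 3.10.9.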

Additional observations from a re-analysis of the deposited data

How the results depend on the processing

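With peaks at or above the median score only, the windows held 0 peaks, and the ratios to flanks and to the rest of the chromosomes were 0 by construction, with intervals up to 0.178 and 0.195. The peak count was 3 with any base of overlap, with peaks under 1 kb apart merged and with edges 100 kb inward, and 4 with edges 100 kb outward. The ratio to the flanks ran from 0 to 0.131 over 12 alternatives and that to the chromosomes from 0 to 0.138 over 9, and the upper interval bound was below 1 in each. Joint placements with as few peaks made up 0% in the main draw, 0.1% with another seed, 0.2% after merging and 0.0512% over all starts in steps of 10 kb. For single windows the share went from 6.8% to between 4.2% and 16.8% on chromosome 9, and from 31.0% to between 28.5% and 43.7% for the short chromosome 2 window. For the long chromosome 2 window it went from 2.6% to between 2.1% and 3.8%. On chromosome 7 it went from 58.4% to between 50% and 64.4% for the first window. For the second it went from 25.4% to between 26.2% and 27.7%. No paired analysis was possible because each group had 1 library and the list gives no genotype for its peaks. Read depth and the share of each window to which reads map uniquely, which can be low in duplicated gene families, were not used here, so their part in the low counts was not tested and a missing peak does not show missing binding.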
